A study of Mus musculus with 9 samples.

Results

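The ATP-binding cassette (ABC) transporter genes are described here in bulk liver RNA from male C57BL/6J mice on a high-fat diet. Members are the protein-coding genes whose symbol is Abc followed by a subfamily letter from a to g, a number and at most 1 further letter, which gave 50 of the 56748 genes in the deposited count table. Of these, 39 had enough counts to be tested and 11 did not. The rule for membership reads symbols and biotype only, and no measured value.

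All 9 mice had the same strain, sex, diet and age. The diet began at 8 weeks of age and ran for 20 weeks, and livers were taken at 28 weeks of age. In the last 4 weeks 5 mice received formoterol, a long-acting beta2-adrenergic agonist that signals through cyclic AMP, at 1 mg/kg by daily intraperitoneal injection. The other 4 received the DMSO vehicle by the same route, and no group on a normal diet or without injections is part of the comparison. Formoterol libraries carry the animal codes M46, M47, M48, M49 and M50, and vehicle libraries the codes M56, M58, M59 and M60. Values per library follow that order below, and the direction of every difference rests on reading the last letter of the column suffix as the treatment.

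ABC proteins bind and hydrolyse ATP to move substrates across membranes. In hepatocytes, exporters on the bile canalicular membrane drive bile salt, phospholipid, conjugate and drug secretion, while exporters on the sinusoidal or basolateral membrane return compounds to blood. Other members move sterols, carry fatty acyl-CoAs into peroxisomes or serve mitochondrial iron and heme metabolism, and the soluble E and F subfamilies have no membrane spans and act in translation. Bile canalicular exporters are known targets of nuclear receptors, among them the bile acid receptor FXR.

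Library totals lay between 12336665 and 20339665 counts and did not separate the groups (difference in means, two-sided exact permutation p = 0.810). The share of counts from the mitochondrial genome ranged from 16.4% to 38.6% in formoterol libraries and from 23.4% to 34.0% in vehicle libraries. Formoterol libraries M46, M47 and M48 lay below every vehicle library, and M50 above them all. Levels below are CPM (counts scaled to a common library size), normalised by the trimmed mean of M-values (TMM), and log2 fold changes are formoterol minus vehicle from edgeR. Scaling by library totals in place of TMM moved the median of all genes from -0.01 to -0.16, a shift of -0.15, so small negative or positive differences depend on the scaling. Hepatocyte markers were abundant in every library, with summed levels of 84677 to 119829 CPM after formoterol and 73512.9 to 86068.2 CPM after vehicle. Alb alone made up most of each sum, at 72733 to 105058 CPM after formoterol and 63462 to 73380 CPM after vehicle. In these bulk samples fewer cells of a type and less RNA per cell cannot be told apart.

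No ABC gene passed the adjusted test. The count was 0 of 39 members against 0% of the 13042 genes tested, with the smallest edgeR adjusted p among members at 0.171 for Abca8a. At an unadjusted edgeR p under 0.05, 3 members were higher (Abca8a, Abcb11 and Abcg2), or 7.69% of members against 9.03% of all genes. In the other direction 7 were lower (Abcc2, Abcc4, Abca9, Abcd2, Abcf2, Abcc1 and Abca3), or 17.9% against 5.53% of all genes. The groups did not overlap in 1 higher member (Abca8a), against 2.45% of all genes, and in 3 lower members (Abcb4, Abcc2 and Abcc1), against 2.38%. The median log2 fold change was -0.12 over the 39 members and -0.01 over all genes tested, with 16 members positive and 23 negative.

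The calls depended on the test and on formoterol library M49. DESeq2 called 314 of the 11264 genes to which it gave an adjusted p, and 2 of 35 such members (Abca8a and Abcc2). Without weights limma-voom called 0 genes. With sample quality weights it called 1374 of 13042 genes and 6 of 39 members (Abca3, Abca8a, Abcb11, Abcc2, Abcc4 and Abcd2). Without M49, edgeR called 702 of 12736 genes and 4 of 39 members, so calls rose over all genes too. These were Abcd2 (log2 fold change -0.85, edgeR adjusted p = 0.00661), Abca8a (0.71, adjusted p = 0.0147), Abca3 (-1.04, adjusted p = 0.0339) and Abcc2 (-0.69, adjusted p = 0.0445). Without vehicle library M60 it called 4 genes, none of them a member. Scaling by library totals left 1 member on the higher side and 9 on the lower side of that unadjusted threshold, against 3.58% and 9.91% of all genes.

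**Figure D1:**
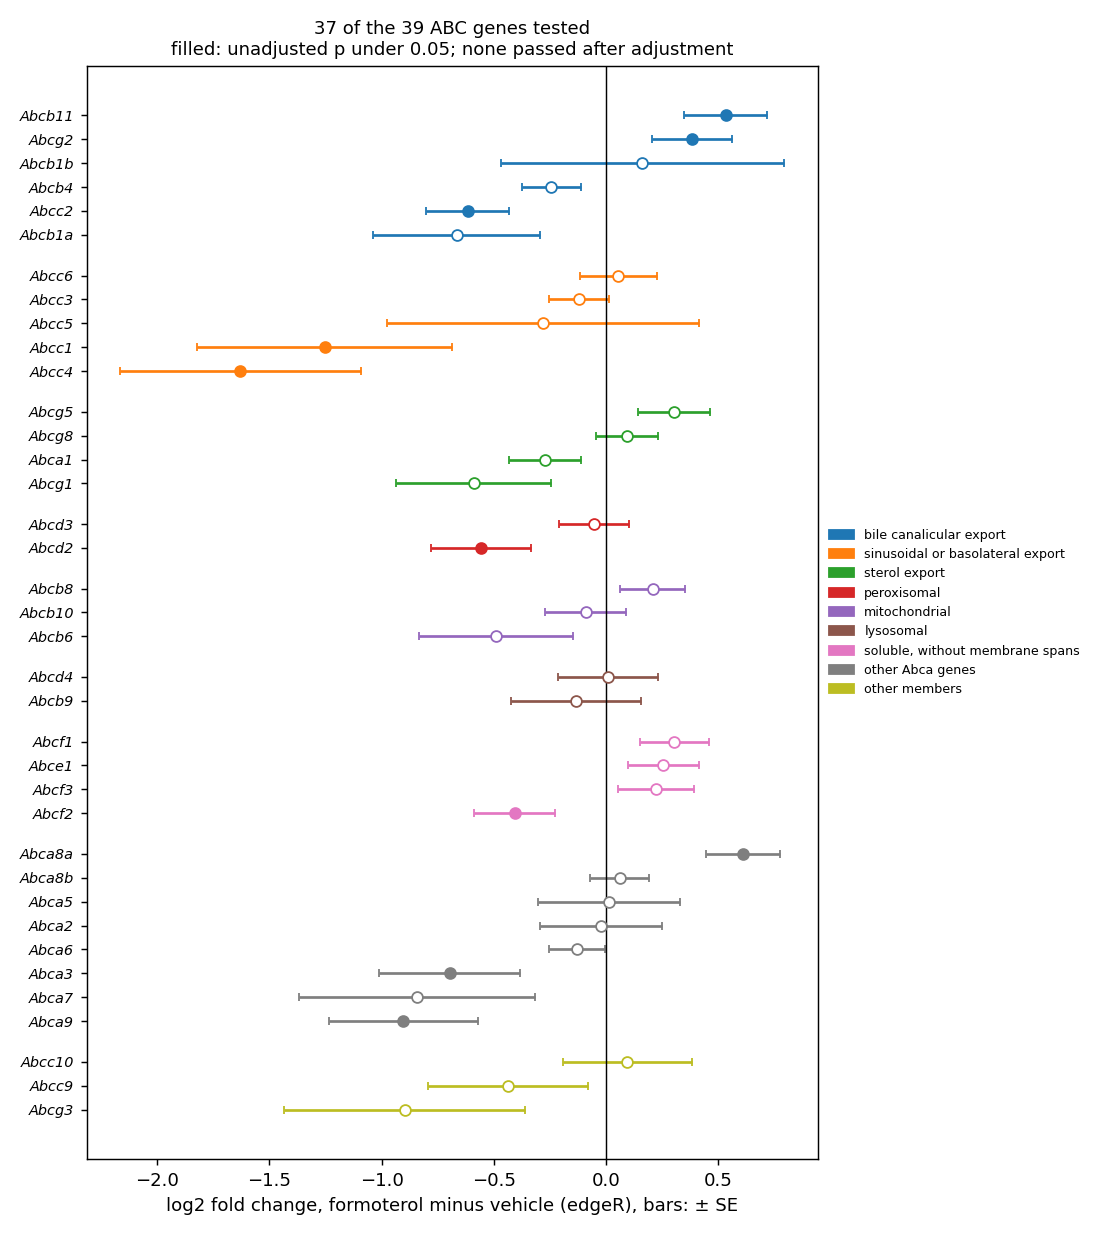
Log2 fold change of 37 of the 39 tested ABC genes, formoterol minus vehicle, with bars of 1 SE from edgeR, grouped and coloured by role. Filled points had an unadjusted p under 0.05 (3 positive and 7 negative), and none passed after adjustment over 13042 genes.

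Levels per kb of deposited gene length set the members side by side, and their order depends on the length used. That length is 9383 bp for Abcb4, 6593 bp for Abcd3 and 5146 bp for Abcb11. Their longest protein-coding transcripts hold 4030, 3440 and 4976 distinct 50-base stretches, so the lengths differ by unlike amounts. An order by transcript length was not computed. In vehicle livers the order of means in CPM per kb was Abcd3 at 55.6 ± 6.60 (SD, n = 4), Abcc2 at 50.1 ± 6.45, Abcb11 at 43.9 ± 9.25, Abcg5 at 31.2 ± 6.87 and Abcb4 at 23.8 ± 1.71. Neighbours in that order lay within 1 SD of each other down to Abcb11, while Abcd3 and Abcb11 differed by more than either SD. In formoterol livers the order in CPM per kb was Abcb11 at 63.5 ± 13.2 (SD, n = 5), Abcd3 at 53.6 ± 7.74, Abcg5 at 38.5 ± 2.85, Abcc2 at 32.7 ± 7.94 and Abcb4 at 20.1 ± 1.42. There, Abcb11 and Abcd3 differed by less than the Abcb11 SD but by more than the Abcd3 SD. Likewise, Abcg5 and Abcc2 differed by less than the Abcc2 SD but by more than the Abcg5 SD. Abcc2 thus stood above Abcb11 in vehicle means and below it in formoterol means. With the deposited lengths, Abcb11 had the highest level per kb of all members in 4 of the 5 formoterol libraries. Among vehicle libraries it did so in M60 alone.

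The next members per kb were Abcc3, Abcc6, Abcg8, Abcg2 and Abce1, with vehicle means from 21.0 down to 9.88 CPM per kb and formoterol means between 11.8 and 19.3. The 5 highest members of each library held 53.4% to 58.6% of its summed ABC level per kb. All members together took 0.188% to 0.261% of the counts of a library. The members above the others in both groups were transporters of bile components, sterols and peroxisomal substrates.

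**Figure D2:**
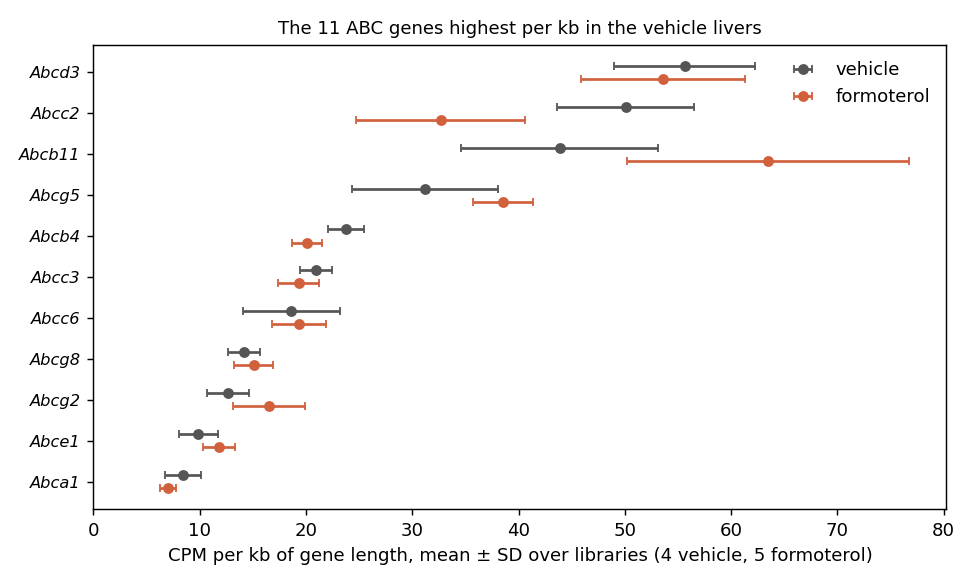
Level per kb of deposited gene length (CPM per kb, mean ± SD) for the 11 ABC genes highest in vehicle livers. The 4 vehicle libraries are in grey and the 5 formoterol libraries in orange, and the order depends on the length used. Abcb11 moves from the third place at 43.9 to the top at 63.5, and Abcc2 from the second at 50.1 to the fourth at 32.7.

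The bile canalicular exporters stood on opposite sides, with Abcb11 and Abcg2 at higher values and Abcc2 at lower values after formoterol. Their promoter windows are shown because these 3 genes had unadjusted p-values under 0.05. Each window runs from 250 bases before to 50 after a RefSeq transcript start on build GRCm38.p6, which is not the build of the counts. Capitals mark, on either strand, every match to the nuclear receptor core AGGTCA, the antioxidant response core TGACNNNGC and the cyclic AMP response element TGACGTCA. The windows are those of Abcb11 (chr2:69342567-69342866, minus strand), Abcc2 (chr19:43782058-43782357, plus strand) and the most downstream of 3 Abcg2 windows (chr6:58640296-58640595, plus strand).
Abcb11: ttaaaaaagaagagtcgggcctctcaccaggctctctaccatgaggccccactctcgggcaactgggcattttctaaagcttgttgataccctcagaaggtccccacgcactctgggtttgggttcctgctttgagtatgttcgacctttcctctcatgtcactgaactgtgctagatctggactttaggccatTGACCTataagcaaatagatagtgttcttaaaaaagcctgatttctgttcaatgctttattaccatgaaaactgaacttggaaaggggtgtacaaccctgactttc
Abcc2: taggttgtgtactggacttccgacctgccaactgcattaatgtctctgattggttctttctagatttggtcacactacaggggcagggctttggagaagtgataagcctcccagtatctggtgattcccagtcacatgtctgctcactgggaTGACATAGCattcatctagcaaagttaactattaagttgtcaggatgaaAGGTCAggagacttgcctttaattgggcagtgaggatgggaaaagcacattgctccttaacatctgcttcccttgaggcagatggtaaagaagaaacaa
Abcg2: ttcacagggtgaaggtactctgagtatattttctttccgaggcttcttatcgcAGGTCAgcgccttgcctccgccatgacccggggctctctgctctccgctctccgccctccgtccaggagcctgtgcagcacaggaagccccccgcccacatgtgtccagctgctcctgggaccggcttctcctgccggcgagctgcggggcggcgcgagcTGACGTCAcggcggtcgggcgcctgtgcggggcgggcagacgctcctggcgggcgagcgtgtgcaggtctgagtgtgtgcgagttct
The Abcb11 match reads TGACCT and begins 56 bases before the start, and the Abcc2 matches begin 49 bases (AGGTCA) and 98 bases (TGACNNNGC) before it. In the printed Abcg2 window AGGTCA begins 197 bases and TGACGTCA 37 bases before the start. Of the 3 Abcg2 windows only the printed one holds TGACGTCA. The first holds matches to AGGTCA that begin 212 and 121 bases before its start, and the second holds no match to any marked motif. Windows matched 38 of the 50 members and numbered 45, of which 2 held TGACGTCA (4.44%, Abcg2 and Abce1), against 1.79% of the 32851 windows of all genes. AGGTCA was in 15.6% of member windows and 16.3% of all windows, and TGACNNNGC in 15.6% and 12.4%. Also searched were CACGTG, in 13.3% and 7.15%, and TGACG, which is part of TGACGTCA, in 20% and 20.8%. These matches describe letters in the windows, with both strands searched, and a match is not a measured binding site.

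Abcb11 (ENSMUSG00000027048, mm39 chr2:69068626-69172960), the bile salt export pump, read 311, 333, 437, 252 and 301 CPM after formoterol. The vehicle libraries read 201, 205, 200.2 and 297 CPM. Vehicle library M60 stood above formoterol library M49, so the groups overlapped through those 2 libraries. Means were 327 ± 68.2 CPM (SD, n = 5) and 226 ± 47.6 CPM (SD, n = 4). The log2 fold change was 0.53 (SE 0.19, edgeR unadjusted p = 0.0119, adjusted p = 0.220). It was 0.70 without M60 (edgeR adjusted p = 0.161) and 0.36 with library totals (unadjusted p = 0.0770).

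Abcc2 (ENSMUSG00000025194, mm39 chr19:43770631-43829179) encodes the canalicular exporter of bilirubin glucuronides and glutathione conjugates. It read 198, 260.4, 240.2, 331 and 365 CPM after formoterol, against 489, 454, 401 and 365 CPM after vehicle. Every formoterol value lay below every vehicle value, but M50 at 364.7 CPM and M60 at 365.1 CPM nearly touched. Means were 279 ± 67.8 CPM (SD, n = 5) and 427 ± 55.0 CPM (SD, n = 4), a log2 fold change of -0.62 (SE 0.18, edgeR unadjusted p = 0.00473, adjusted p = 0.185). The unadjusted p stayed under 0.05 in all 17 alternatives run.

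Abcb4 (ENSMUSG00000042476, mm39 chr5:8943717-9009231), the phosphatidylcholine floppase that protects bile ducts from bile salts, had lower values with little spread. It read 179, 173, 197, 206 and 188 CPM after formoterol and 207, 227, 244 and 215 CPM after vehicle. The groups did not overlap under TMM, but formoterol library M49 at 205.5 CPM and vehicle library M56 at 207.2 CPM nearly touched. The log2 fold change of -0.24 (SE 0.13) had an edgeR unadjusted p of 0.0842 and an adjusted p of 0.414. Abcg2 (ENSMUSG00000029802, mm39 chr6:58561508-58672661), which exports urate and many drugs, read 159.6, 131, 161, 93.4 and 129.7 CPM after formoterol. Its vehicle values were 108, 99.9, 122 and 83.3 CPM, and the groups overlapped through M49. The log2 fold change was 0.38 (SE 0.18, edgeR unadjusted p = 0.0477, adjusted p = 0.337), and the unadjusted p was under 0.05 in 6 of 17 alternatives. With library totals the fold change was 0.22 for Abcg2 and -0.39 for Abcb4.

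The drug exporters of the multidrug resistance type were scarce. Abcb1a read 1.71, 2.34, 1.95, 5.07 and 1.76 CPM after formoterol against 2.45, 3.70, 5.52 and 4.75 CPM after vehicle, so that only M49 among formoterol libraries exceeded the lowest vehicle value. Its log2 fold change was -0.67 (SE 0.37, edgeR adjusted p = 0.434), and -1.09 without M49 (adjusted p = 0.0591). Abcb1b read 1.46, 0.567, 0.843, 0.682 and 1.29 CPM after formoterol and 1.40, 0.329, 1.51 and 0.158 CPM after vehicle. These Abcb1b values scattered as widely within vehicle as between the groups (log2 fold change 0.16, SE 0.63, edgeR adjusted p = 0.933, with a negative sign under library totals). Of the 50-base stretches of Abcb1a transcripts, 15.5% also occur in Abcb1b, and 18.0% of those of Abcb1b occur in Abcb1a, so counts of the pair may be split or dropped.

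**Figure D3:**
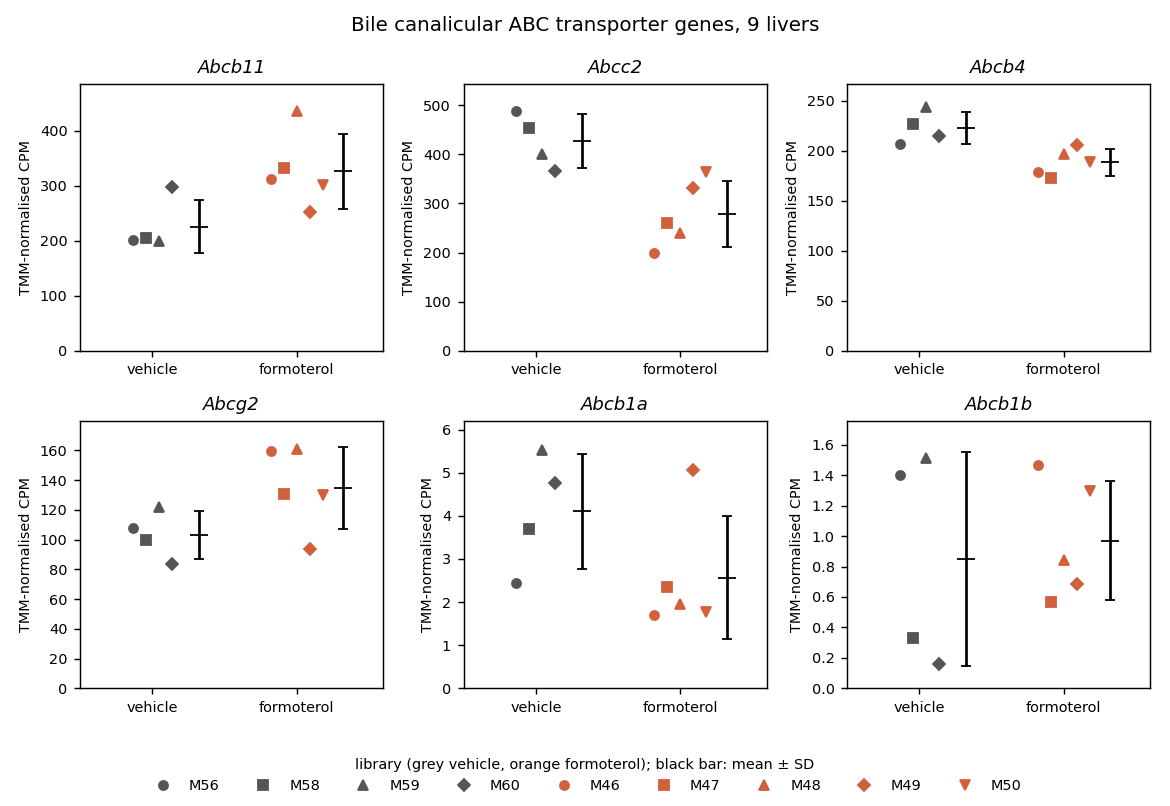
TMM-normalised CPM of the 6 bile canalicular genes in each liver, vehicle in grey and formoterol in orange, with 1 symbol per library and a black bar for mean ± SD. Abcc2 and Abcb4 do not overlap between groups, and M60 for Abcb11 and M49 for Abcb11, Abcg2 and Abcb1a lie among the other group's values.

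Because both genes were measured in the same library, the ratio of Abcb11 to Abcc2 per kb does not depend on scaling. Its size does depend on the gene lengths used. The ratio was 2.60, 2.12, 3.01, 1.26 and 1.37 in formoterol libraries and 0.682, 0.747, 0.827 and 1.35 in vehicle libraries. Abcb11 exceeded Abcc2 in all 5 formoterol livers and in vehicle liver M60, and was below it in the other 3 vehicle livers. Mean ratios were 2.07 ± 0.761 (SD, n = 5) and 0.901 ± 0.304 (SD, n = 4), and M60 lay above M49. Against Abcb4 the Abcb11 ratio averaged 3.17 ± 0.672 and 1.86 ± 0.456. These pairs were chosen after their values were seen and carry no test.

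**Figure D4:**
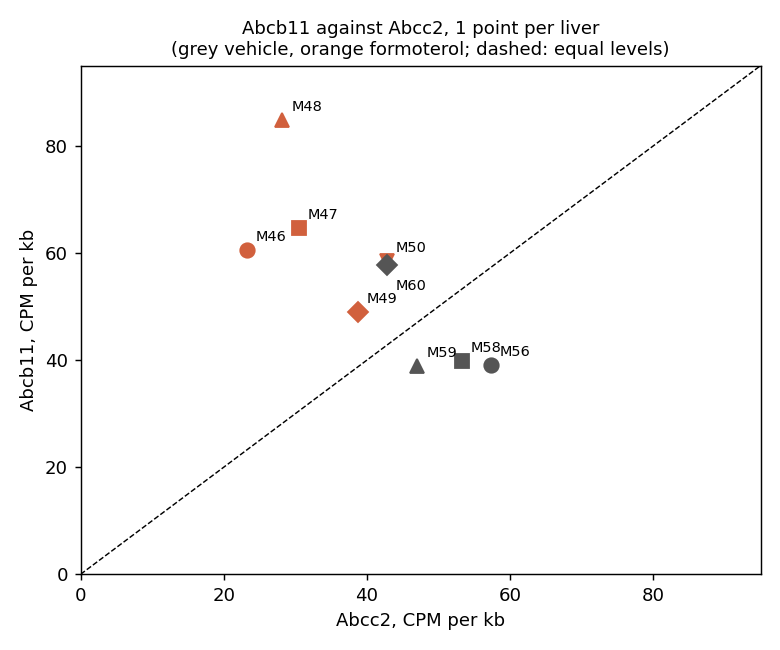
Abcb11 against Abcc2 in CPM per kb, 1 point per liver labelled by animal code, with a dashed line of equal levels. The 5 formoterol livers (orange) and vehicle liver M60 lie above the line with ratios of 1.26 to 3.01, and the other 3 vehicle livers (grey) below it with ratios of 0.682 to 0.827.

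Summed over the 6 canalicular genes, the level was 933 ± 77.0 CPM (SD, n = 5) after formoterol and 985 ± 19.2 CPM (SD, n = 4) after vehicle. With library totals in place of TMM the sum was 888 ± 87.6 and 1047 ± 67.8 CPM, so the difference in the class total was within the formoterol SD under TMM and beyond both SDs under library totals. Among the 6 hepatocyte markers, 3 (Ass1, Cps1 and Fgb) had higher values after formoterol with an unadjusted edgeR p below 0.05, and 0 had lower values (all genes, 9.03% and 5.53%). Alb (log2 fold change 0.35), Ttr (0.08) and Tat (-0.07) were not under that threshold. Ass1, a urea cycle enzyme, read 2128 CPM in vehicle library M60 against 1084 to 1262 CPM in the other vehicle libraries. M60 was also the highest vehicle library for Abcb11, but the lowest for Abcg2 (83.3 CPM), Abcc2 (365 CPM) and Abcb1b (0.158 CPM). The part of hepatocyte content in the Abcb11 and Abcg2 values was not tested.

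The sinusoidal and basolateral exporters were dominated by 2 genes with little difference. Abcc3, which exports bile acid and bilirubin conjugates to blood, read 117, 113, 123, 99.4 and 97.8 CPM after formoterol and 108, 127, 124 and 119 CPM after vehicle (log2 fold change -0.12, SE 0.13, edgeR adjusted p = 0.723). Abcc6, the ATP release protein whose loss causes ectopic calcification, read 97.5, 118, 113, 94.8 and 129 CPM against 94.0, 141, 80.0 and 111 CPM (0.06, SE 0.17, adjusted p = 0.913, negative under library totals). Both ranges overlapped broadly, and the class sum was 225 ± 14.6 CPM (SD, n = 5) after formoterol and 234 ± 31.0 CPM (SD, n = 4) after vehicle. With library totals that sum was 214 ± 16.1 and 247 ± 23.6 CPM.

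Scarce basolateral exporters had the lowest fold changes of the class. Abcc4 (ENSMUSG00000032849, mm39 chr14:118720104-118943631), which exports cyclic nucleotides and bile acids, read 0.407, 0.142, 0.389, 0.536 and 0.824 CPM after formoterol and 1.28, 0.823, 2.20 and 1.48 CPM after vehicle. Only formoterol library M50 reached the lowest vehicle library, M58, and the log2 fold change was -1.63 (SE 0.54, edgeR unadjusted p = 0.00859, adjusted p = 0.205). Abcc1 (ENSMUSG00000023088, mm39 chr16:14179422-14293601), a glutathione conjugate and leukotriene exporter, read 0.570, 1.13, 0.0648, 1.17 and 0.647 CPM against 1.69, 2.30, 1.76 and 1.21 CPM. The Abcc1 groups did not overlap, by the narrow gap between M49 and M60, and the log2 fold change was -1.25 (SE 0.57, edgeR unadjusted p = 0.0442, adjusted p = 0.328). A count of 3 corresponds to between 0.147 and 0.243 CPM on library totals, without TMM factors. The lowest of these values thus rest on a few reads. Abcc5, a cyclic nucleotide and heme exporter, read 0.0814, 1.84, 3.24, 8.77 and 3.88 CPM after formoterol and 5.47, 5.76, 4.05 and 2.43 CPM after vehicle (-0.28, SE 0.70, edgeR adjusted p = 0.891). For Abcc5, formoterol libraries M46 and M47 lay below the whole vehicle range and M49 above it, and the fold change was 0.0068 without M46 and -0.94 without M49.

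The sterol exporters showed no member with an unadjusted p under 0.05. Abcg5 and Abcg8 form the heterodimer that sends cholesterol and plant sterols into bile. Abcg5 (ENSMUSG00000040505, mm39 chr17:84965662-84990439) read 103, 108, 111, 91.6 and 109 CPM after formoterol and 76.5, 106, 63.3 and 93.2 CPM after vehicle. Its log2 fold change was 0.30 (SE 0.16, edgeR unadjusted p = 0.0771, adjusted p = 0.401), with formoterol values close together and vehicle values wide apart. It was 0.19 without vehicle library M59 and 0.15 with library totals. Abcg8 (ENSMUSG00000024254, mm39 chr17:84983730-85007761) read 54.0, 67.6, 56.4, 48.98 and 55.4 CPM against 53.4, 52.5, 46.1 and 59.9 CPM (0.09, SE 0.14, adjusted p = 0.804, negative under library totals). Levels per kb stood at a ratio of Abcg5 to Abcg8 of 2.57 ± 0.213 (SD, n = 5) after formoterol and 2.20 ± 0.401 (SD, n = 4) after vehicle, and the ranges overlapped.

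The Abcg5 and Abcg8 genes are transcribed from opposite strands and their spans overlap by 6710 bp (mm39 chr17:84983730-84990439). Whole spans were compared and not exons, so whether counted stretches overlap was not tested. No strand setting is stated, so how any reads shared by both genes were assigned is not known. Their RefSeq promoter windows (GRCm38.p6, chr17:84682962-84683261 on the minus strand for Abcg5 and chr17:84682871-84683170 on the plus strand for the second Abcg8 window) are printed because the paired genes share this DNA. Capitals mark the 209 bases that the windows have in common, read on opposite strands, with starts 110 bp apart.
Abcg5: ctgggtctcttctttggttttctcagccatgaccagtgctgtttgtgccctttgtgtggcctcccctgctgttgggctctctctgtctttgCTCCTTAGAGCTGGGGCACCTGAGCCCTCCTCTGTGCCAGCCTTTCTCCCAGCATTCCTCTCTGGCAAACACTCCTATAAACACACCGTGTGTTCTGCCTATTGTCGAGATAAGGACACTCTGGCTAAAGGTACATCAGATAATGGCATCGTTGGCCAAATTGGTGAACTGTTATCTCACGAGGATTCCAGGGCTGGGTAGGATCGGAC
Abcg8: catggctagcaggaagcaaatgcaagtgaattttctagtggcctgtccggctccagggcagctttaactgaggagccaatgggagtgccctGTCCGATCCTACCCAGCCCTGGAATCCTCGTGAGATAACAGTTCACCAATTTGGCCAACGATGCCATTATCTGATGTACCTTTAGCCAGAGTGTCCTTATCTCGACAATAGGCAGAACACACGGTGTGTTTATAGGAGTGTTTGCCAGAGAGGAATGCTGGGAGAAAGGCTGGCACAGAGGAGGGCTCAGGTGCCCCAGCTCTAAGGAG

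Abca1 and Abcg1 move cholesterol to apolipoprotein A-I and to high-density lipoprotein. Abca1 read 63.6, 76.8, 63.9, 79.6 and 78.8 CPM after formoterol and 103, 94.1, 90.7 and 62.2 CPM after vehicle. Vehicle library M60 lay below every formoterol library and the other 3 vehicle libraries above them all, and the log2 fold change was -0.27 (SE 0.16, edgeR adjusted p = 0.463). Abcg1 read 2.03, 2.84, 1.43, 4.29 and 3.00 CPM against 5.65, 2.55, 4.78 and 3.43 CPM (-0.59, SE 0.35, edgeR adjusted p = 0.455), with overlapping ranges. The sterol class sum was 236 ± 13.9 CPM (SD, n = 5) after formoterol and 229 ± 22.0 CPM (SD, n = 4) after vehicle, and its direction turned with library totals (225 ± 22.5 and 243 ± 22.8 CPM).

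Of the peroxisomal members, Abcd2 had an unadjusted p under 0.05 and Abcd3 did not. Abcd2 (ENSMUSG00000055782, mm39 chr15:91030074-91076002), which carries very long-chain fatty acyl-CoAs into peroxisomes, read 18.9, 20.7, 17.8, 38.0 and 15.2 CPM after formoterol. All vehicle livers were close together at 30.4, 33.6, 32.7 and 33.8 CPM. The 4 formoterol libraries other than M49 lay below every vehicle library, and M49 lay above them all. Over all libraries the log2 fold change was -0.56 (SE 0.22, edgeR unadjusted p = 0.0257, adjusted p = 0.272).

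Abcd3, the peroxisomal transporter of branched-chain acyl-CoAs and bile acid intermediates, read 312, 429.8, 382, 322 and 321 CPM after formoterol and 409, 326, 399.7 and 333 CPM after vehicle. Its log2 fold change was -0.05 (SE 0.15, edgeR adjusted p = 0.905), positive with quality weights. The Abcd3 groups overlapped across most of their ranges. Of 6 partner genes of peroxisomal import and oxidation (among them Pex19, Pex3, Pex16, Slc27a2 and Acot8), 0 had an unadjusted p under 0.05 in either direction.

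The mitochondrial members had no unadjusted p under 0.05. Abcb8, part of a mitochondrial potassium channel, read 27.5, 30.1, 26.6, 28.9 and 30.6 CPM after formoterol and 23.2, 20.3, 29.8 and 26.0 CPM after vehicle (log2 fold change 0.21, SE 0.14, edgeR adjusted p = 0.533). Formoterol library M48, the lowest of its group, lay above 3 of the 4 vehicle libraries and below M59, and the Abcb8 fold change was 0.052 with library totals. Abcb10, which takes part in heme synthesis and biliverdin export, read 14.2, 17.2, 16.7, 11.6 and 12.2 CPM after formoterol and 15.8, 11.8, 17.2 and 16.4 CPM after vehicle (-0.09, SE 0.18, edgeR adjusted p = 0.858). Abcb6, a porphyrin transporter, read 2.28, 1.56, 2.33, 1.02 and 2.41 CPM against 3.38, 2.39, 2.25 and 2.75 CPM (-0.49, SE 0.34, edgeR adjusted p = 0.538). Neither pair of ranges was separate.

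The lysosomal members stayed within overlapping ranges. Abcb9, a peptide transporter, read 2.60, 3.90, 2.27, 3.75 and 2.12 CPM after formoterol and 3.09, 3.70, 2.78 and 3.33 CPM after vehicle (log2 fold change -0.13, edgeR adjusted p = 0.874). Abcd4, which acts in lysosomal cobalamin release, read 11.1, 7.87, 8.37, 8.29 and 9.12 CPM against 6.00, 13.0, 7.81 and 8.82 CPM (0.01, edgeR adjusted p = 0.989).

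Of the 4 soluble members only Abcf2 had an unadjusted p under 0.05, and it was the single negative one. Abcf2 (ENSMUSG00000028953, mm39 chr5:24770343-24782465), a ribosome-associated ATPase, read 11.4, 9.71, 8.11, 12.04 and 9.94 CPM after formoterol and 14.0, 10.2, 15.0 and 14.9 CPM after vehicle. The vehicle library M58 lay within the formoterol range, and the log2 fold change was -0.41 (SE 0.18, edgeR unadjusted p = 0.0406, adjusted p = 0.317). Abce1, the ribosome recycling factor, read 83.2, 70.5, 74.4, 67.6 and 58.7 CPM against 69.1, 54.9, 67.2 and 46.1 CPM (0.26, SE 0.16, edgeR adjusted p = 0.481). Abcf1, a translation initiation factor partner, read 54.9, 37.6, 45.7, 37.2 and 41.4 CPM against 31.1, 38.8, 31.8 and 38.8 CPM (0.30, SE 0.15, edgeR adjusted p = 0.381). With library totals the fold change was 0.10 for Abce1 and 0.14 for Abcf1. Abcf3 ranged from 18.7 to 31.0 CPM after formoterol and from 17.2 to 25.4 CPM after vehicle.

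The remaining Abca genes hold the member with the smallest p. Abca8a (ENSMUSG00000041828, mm39 chr11:109916460-109986804), a lipid transporter of the A subfamily, read 22.1, 24.2, 24.7, 15.99 and 25.3 CPM after formoterol and 15.1, 15.5, 13.8 and 14.5 CPM after vehicle. All formoterol libraries were above all vehicle libraries, with M49 only just so. The log2 fold change was 0.61 (SE 0.16, edgeR unadjusted p = 0.00209, adjusted p = 0.171), from means of 22.5 ± 3.81 CPM (SD, n = 5) and 14.7 ± 0.740 CPM (SD, n = 4). It was positive with an unadjusted p under 0.05 in all 17 alternatives run.

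Abca8a belongs to a run of 5 Abca genes on the same strand of chromosome 11 (Abca8b, Abca8a, Abca9, Abca6 and Abca5, mm39 chr11:109823016-110228542), and its neighbours had other fold changes, a difference between genes that was not tested. Abca8b read 44.8, 50.7, 46.6, 43.3 and 59.1 CPM after formoterol and 48.7, 45.6, 48.8 and 44.4 CPM after vehicle (log2 fold change 0.06, SE 0.13, edgeR adjusted p = 0.875, negative under library totals). Abca6 read 37.9, 34.4, 38.6, 35.5 and 34.1 CPM against 37.7, 44.6, 38.8 and 37.1 CPM (-0.13, SE 0.13, edgeR adjusted p = 0.675). Abca9 (ENSMUSG00000041797, mm39 chr11:109991575-110059022) stood on the other side at 1.38, 2.06, 2.20, 3.17 and 1.82 CPM against 4.83, 5.43, 2.39 and 3.48 CPM (-0.90, SE 0.33, edgeR unadjusted p = 0.0161, adjusted p = 0.236). Abca5 ranged from 1.82 to 4.04 CPM after formoterol and from 2.39 to 3.64 CPM after vehicle.

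The ratio of Abca8a to Abca8b per kb, which scaling does not touch, was 0.584, 0.564, 0.628, 0.437 and 0.507 in formoterol libraries and 0.366, 0.402, 0.334 and 0.387 in vehicle libraries. No vehicle ratio reached the lowest formoterol ratio. Means were 0.544 ± 0.0742 (SD, n = 5) and 0.372 ± 0.0293 (SD, n = 4), a pair chosen after the values were seen. The transcripts share 1.89% of the 50-base stretches of Abca8a.

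Abca3 (ENSMUSG00000024130, mm39 chr17:24570924-24629175), the surfactant phospholipid transporter of lung, read 3.50, 6.80, 3.76, 12.8 and 8.12 CPM after formoterol and 11.6, 10.8, 12.9 and 10.5 CPM after vehicle. Again M49 alone reached the vehicle range, and the log2 fold change was -0.70 (SE 0.32, edgeR unadjusted p = 0.0443, adjusted p = 0.328). The unadjusted p of Abca3 was under 0.05 in 10 of 17 alternatives, that of Abcc1 in 11, of Abcf2 in 11 and of Abcd2 in 13. Abca2 ranged from 6.23 to 16.3 CPM after formoterol and 10.2 to 12.1 CPM after vehicle, and Abca7 from 0.244 to 4.29 CPM and 2.64 to 5.54 CPM.

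**Figure D5:**
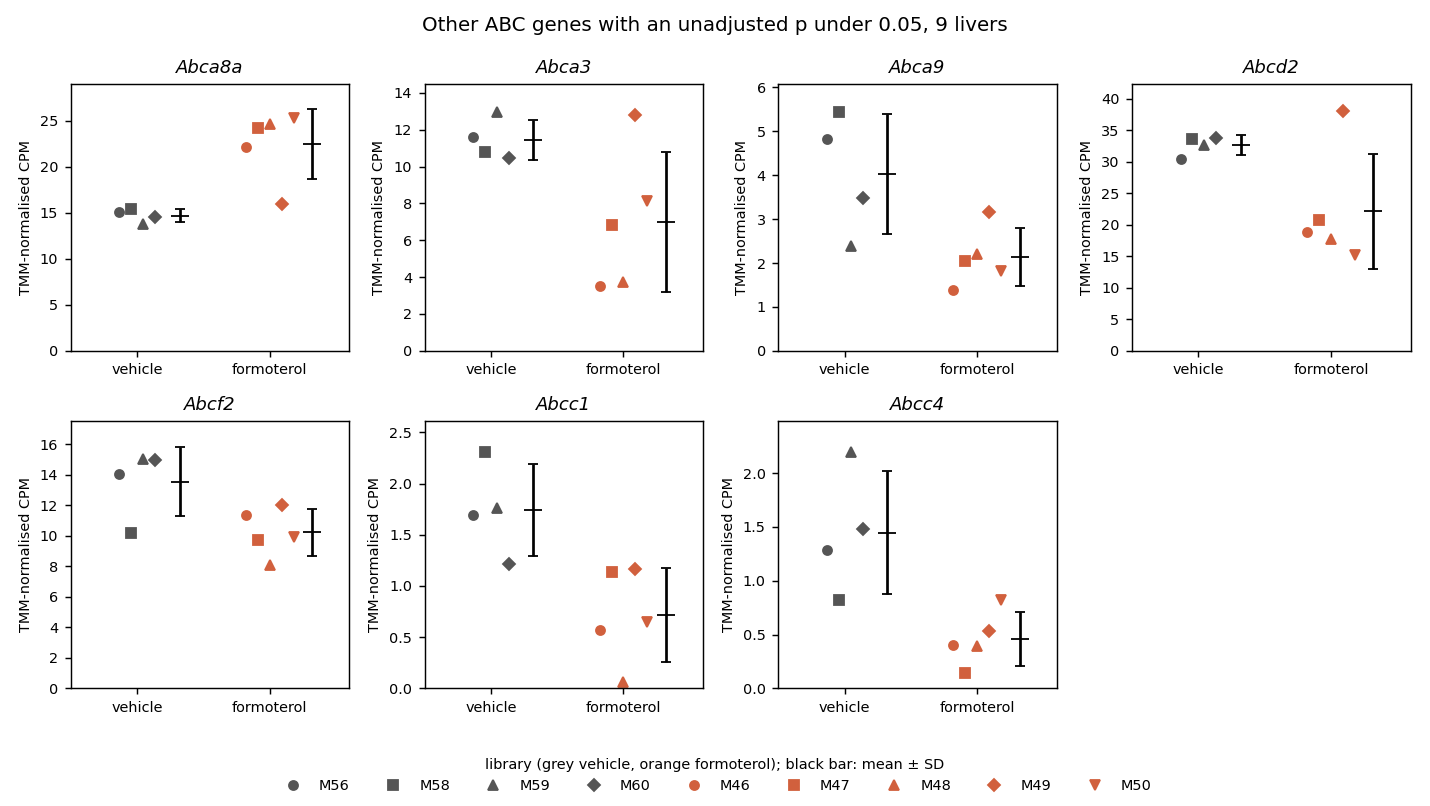
TMM-normalised CPM in each liver for the 7 ABC genes outside the canalicular class with an unadjusted p under 0.05, vehicle in grey and formoterol in orange, with 1 symbol per library and a black bar for mean ± SD. Abca8a is higher after formoterol without overlap, and M49 (orange diamond) is the highest formoterol library for Abca3, Abca9, Abcd2, Abcf2 and Abcc1.

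The other members include Abcc9, the sulfonylurea receptor subunit of potassium channels in vascular and stellate cells. It read 6.83, 24.3, 17.4, 27.1 and 32.2 CPM after formoterol and 36.1, 26.2, 35.2 and 19.6 CPM after vehicle (log2 fold change -0.44, SE 0.36, edgeR adjusted p = 0.617), and the fold change was -0.23 without M46. Its channel partner Kcnj8 was at 0.895 to 2.40 CPM after formoterol and 0.897 to 1.89 CPM after vehicle, and Kcnj11 had 0 counts in every library. Abcc10 read 5.13, 6.38, 3.76, 9.16 and 10.1 CPM against 6.52, 8.39, 4.98 and 6.18 CPM (0.10, SE 0.29, edgeR adjusted p = 0.909, negative under library totals). Abcg3 ranged from 0.163 to 1.66 CPM and from 0.879 to 2.30 CPM.

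Markers of cells other than hepatocytes varied between libraries, as did several scarce members. Stellate cell and fibroblast markers summed to 82.3 to 382 CPM after formoterol and 251 to 413 CPM after vehicle, with 8 of 8 fold changes negative and 0 with an unadjusted p under 0.05. Endothelial markers summed to 33.6 to 111 CPM and 86.5 to 109 CPM, with 7 of 8 negative and 0 under that threshold. Monocyte and lipid-associated macrophage markers summed to 22.5 to 69.4 CPM and 52.3 to 97.0 CPM, with 5 of the 6 tested negative. At an unadjusted edgeR p under 0.05, 3 of the 6 (Ccr2, Cd9 and Lyz2) were lower, where 5.53% of all genes were. Itgax and Cd68 were not under that threshold, nor was Trem2, the positive one (log2 fold change 0.18). Library M46 had the lowest and M49 the highest formoterol sum for the stellate, endothelial, monocyte and cholangiocyte lists. For the Kupffer cell list the lowest formoterol sum was again in M46, and the highest in M50. M46 was also the lowest formoterol library for Abcc9, Abca3, Abca9, Abcc5 and Abca7, and for the abundant Abcc2 and Abcd3. For other lower members the lowest formoterol library was M50 (Abcd2), M48 (Abcf2 and Abcc1) or M47 (Abcc4).

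Kupffer cell markers summed to 35.5 to 74.0 CPM and 35.4 to 71.6 CPM and cholangiocyte markers to 71.2 to 260 CPM and 82.6 to 197 CPM, with 0 genes under that threshold in either list. No listed marker was at 0 in all libraries. The part of these cells in the lower values of Abcc1, Abcc4, Abca3, Abca9, Abcd2 and Abcf2 was not tested.

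The 11 members that were not tested were at or near 0. Abca13, Abca15, Abcb5 and Abcc8 had 0 counts in all 9 libraries. That allows at most 3 counts in a library, or up to 0.243 CPM on library totals in the shallowest. Counts per library reached 1 for Abca16 and Abca17, 3 for Abca4 and Abca12, 5 for Abcc12, 12 for Abca14 and 13 for Abcg4. The 13 counts of Abcg4, a sterol exporter best known from brain, came from formoterol library M49. At this depth a difference in any of the 11 was not detectable.

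Genes that work with the transporters were read in the same fit. The counts below stand beside the shares of all genes at that threshold, 9.03% higher and 5.53% lower. Of 13 regulators, 1 was higher at an unadjusted edgeR p under 0.05, Nr1h3 (the oxysterol receptor LXR alpha) at a log2 fold change of 0.39 (adjusted p = 0.236), and 1 was lower. The bile acid receptor gene Nr1h4 was at 132 to 195 CPM after formoterol and 125 to 144 CPM after vehicle (0.25, edgeR adjusted p = 0.445). Of 13 canalicular and bile acid partners tested, 4 were higher and 3 lower by the same measure. Higher were Tmem30a (0.67, edgeR adjusted p = 0.191), the flippase subunit, Cyp7a1 (0.52, adjusted p = 0.242), the rate-limiting enzyme of bile acid synthesis, and the membrane-cytoskeleton linkers Rdx (0.42, adjusted p = 0.242) and Slc9a3r1 (0.42, adjusted p = 0.248).

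Lower were the scaffold Pdzk1 (-0.73, edgeR adjusted p = 0.248), the apical trafficking motor Myo5b (-0.45, adjusted p = 0.280) and the linker Ezr. Radixin, the product of Rdx, anchors the Abcc2 protein at the canaliculus, and its transcript was at 114 to 167 CPM after formoterol and 91.6 to 121 CPM after vehicle while Abcc2 was lower. Of 7 sterol partners tested, only Apoa1, the acceptor for Abca1, was under the threshold, at 11267 to 18547 CPM after formoterol and 7366 to 10338 CPM after vehicle (0.83, edgeR adjusted p = 0.159). Of 6 mitochondrial iron and heme genes, 1 was higher and 1 lower, the latter being the mitochondrial iron importer Slc25a37 (-0.60, edgeR adjusted p = 0.223). Tap2, an ABC gene of antigen presentation outside the naming pattern, was higher without overlap (0.54, edgeR adjusted p = 0.212), and its partner Tap1 was not under the threshold.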

How the data were processed

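Poly(A) RNA of 9 livers was sequenced from randomly primed cDNA, per the labels' protocols. The values are raw read counts for each Ensembl gene, deposited by the authors without normalization. Alignment was to mm39 with HISAT2 2.0.5, and DESeq2 is also listed, per the submitters' processing notes. How reads were counted, with which strand setting and annotation, is not given in the sources used here. Columns were grouped by suffix. The design text counts mice, so a library stands for 1 mouse. Should any come from a shared animal, p-values reflect the spread of these samples alone, which could be technical. Libraries of a group differed beyond sampling noise (chi-square per degree of freedom 24.0 to 232), so none was treated as a duplicate.

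From the counts, edgeR 4.0.16 in R 4.3.3 kept 13042 genes (filterByExpr, minimum count 10, minimum total 15) and compared the groups with TMM factors and the robust quasi-likelihood test. P-values were adjusted by Benjamini-Hochberg over those 13042 genes at a threshold of 0.05. CPM per kb uses the deposited gene length. DESeq2 1.42.0 and limma 3.58.1 served as alternatives, with other scalings, no filter and each library left out. Totals of 12336665 to 20339665 counts set the precision, and the floor of 3 counts covers counting error only.

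Some members and partner genes that the naming rule selects are not reported here, though counts over lists include them, and the others are all named. Values in every library are given for tested members of the canalicular, sinusoidal, sterol, peroxisomal and mitochondrial classes, and elsewhere for those with an unadjusted p under 0.05 or among the 2 highest per kb of their class. Up to 10 partners are named by smallest p. Ezr, Nr1h4, Kcnj8, Kcnj11, Tap1, Pex19, Pex3, Pex16, Slc27a2, Acot8 and the markers named singly were added after values were seen. The rule for members uses no measured value, but the gene family, the classes and the lists were chosen with earlier results of these data known.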

Additional observations from a re-analysis of the deposited data

Results flagged for a closer look

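In 3 of the 68 sets of libraries examined (each gene in each group), 1 library stood apart from the rest of its group, where chance alone flags about 5% of such sets. Abcb11 read 297 CPM in vehicle library M60 and 200.2 to 205 CPM in the other vehicle libraries. Abcb1a read 5.07 CPM in formoterol library M49 and 1.71 to 2.34 CPM in the other formoterol libraries. Abcd2 read 38.0 CPM in M49 and 15.2 to 20.7 CPM in the other formoterol libraries.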

How the results depend on the processing

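Genes called numbered 263 with no filter on low counts, 314 with DESeq2 and 1374 with limma-voom and quality weights, against 0 in edgeR's quasi-likelihood test, and 0 to 702 when 1 library was left out (702 without M49, 4 without M60, 0 otherwise). ABC members higher at an unadjusted p under 0.05 numbered 1 with library totals (3.58% of all genes), 5 with quality weights (14.3% of all genes) and 2 to 5 when 1 library was left out (5.77% to 12.6% of all genes). Members lower numbered 3 to 10 when 1 was left out (3.29% to 10.8% of all genes). The median of the members was -0.26 with library totals. Of the 39 members, 27 kept their sign in all 17 alternatives. With library totals the sign turned for Abcb1b (-0.023), Abcd4 (-0.13), Abca5 (-0.12), Abca8b (-0.11), Abcc10 (-0.049), Abcc6 (-0.10) and Abcg8 (-0.069). With upper-quartile factors it turned for Abcd4 (-0.030) and Abca5 (-0.029), with limma-voom for Abca5 (-0.060), and with quality weights for Abcb1b (-0.033), Abcb9 (0.071), Abcb10 (0.019) and Abcd3 (0.073). When 1 library was left out, log2 fold changes of members whose sign turned ran from -0.18 to 0.60 for Abcb1b, -0.14 to 0.24 for Abcd4, -0.22 to 0.11 for Abca2, -0.12 to 0.14 for Abca5, -0.025 to 0.10 for Abca8b, -0.093 to 0.24 for Abcc10, -0.14 to 0.0031 for Abcd3, -0.94 to 0.0068 for Abcc5 and -0.058 to 0.22 for Abcc6. The cause was not tested. No paired analysis was possible because the columns carry animal codes and no replicate number, so the fit with the replicate number as a block was not run. Depth limits the 11 untested members and the scarce Abcc1, Abcc4 and Abcb1b.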
